A study of Caenorhabditis elegans with 10 samples.

Results

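The transcriptome described here is that of Caenorhabditis elegans dauers that carry the daf-2 mutation e1370 and no chd-7 mutation. It was read in 5 RNA-seq libraries, which are the 5 of the 10 libraries in the series whose genotype label is daf-2 alone, and they are called replicates 1 to 5. DAF-2 is the worm's insulin-like receptor, and the e1370 allele loses function at high temperature. All 5 libraries share the same treatment: after synchronization, the eggs stayed at 25°C, and 10 days later the dauers were harvested and frozen. Per the labels, TRIzol was used to extract RNA, and an NEBNext Ultra II RNA kit served to build the libraries. The material was whole animals of 1 mutant strain, no wild type or other stage enters, and the labels do not say whether the libraries came from separate cultures. The spread between them may therefore be partly technical, and nothing here is tested between conditions.

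The dauer is an arrested, non-feeding larva that C. elegans forms in place of a growing stage when food is scarce or pheromone and temperature are high. Insulin-like signalling through DAF-2, TGF-beta signalling through DAF-7 and steroid hormones made by DAF-9 for the receptor DAF-12 all hold off dauer entry. In daf-2 dauers the transcription factor DAF-16 is active, animals live on stored fat, the glyoxylate shunt turns fat-derived carbon into sugar, and a dauer-specific cuticle with lateral ridges seals the body.

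Reads assigned to genes numbered 12740821, 10523987, 10107367, 13828689 and 7331885 in replicates 1 to 5. A level is given as CPM (counts per 1000000 assigned reads), which compares 1 gene between libraries. Levels of different genes are compared only as TPM, which also divides by the annotated exonic length. Where a gene with CPM values is said to lead a list, it held most of the list's reads, which is not a comparison per length. The 5 values of a gene or list always stand in the order of replicates 1 to 5, and ± is the SD over the 5 libraries. Where a gene had no read, a true level of up to 3 reads was not detectable, which corresponded to 0.217 to 0.409 CPM per library and covers counting error only.

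Replicates 4 and 5 were much closer to each other than any other pair. Their counts differed by a chi-square of 3.83 per degree of freedom, against 15.99 for replicates 2 and 3 and 30.6 to 67.4 for the other 8 pairs, where sampling noise alone gives about 1. The first principal component of log2 CPM held 53% of the variance and put replicates 1, 2 and 3 on one side and replicates 4 and 5 on the other. The second held 26.6% and set replicate 1 apart from replicates 2 and 3. Whether replicates 4 and 5 share a culture or a batch is not given in the labels, so the number of independent units may be below 5.

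Most annotated genes were read, and the reads were spread unevenly. Of 20222 genes in the tables, 12301 (60.8%) averaged 1 CPM or more, 1701 had at least 100 CPM and 150 had at least 1000 CPM. Counts of list members at 1 CPM given below are to be read beside that 60.8%. A total of 14310 genes had a read in all 5 libraries, and 2120 (10.5%) were at 0 in all 5. The 10 most abundant genes took 8.0% ± 1.13 of the reads and the top 100 took 31.2% ± 2.58. It took 67 genes to reach 25% of the reads, 358 to reach 50% and 4379 to reach 90%.

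The most abundant messages belonged to protein synthesis. The gene eef-1A.1, encoding translation elongation factor 1-alpha, lies on chromosome III from 6970026 to 6971712 (Ensembl 115 annotation of WBcel235) and had 15239, 17093, 15283, 13337 and 11082 CPM. Per length it stood first of all genes with a matched length, at 10722 ± 1424 TPM, against a median of 3.97 TPM over all genes with a length. The level was lowest in replicate 5 and highest in replicate 2. Elongation factor 2, encoded by eef-2, varied less, with 11302, 11893, 10886, 12307 and 11557 CPM. The cytosolic HSP90 chaperone gene daf-21 had 18660.1, 13389.8, 12319, 12103 and 12732 CPM, highest in replicate 1. It has no matched length, so it takes no place in the TPM order.

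Of the 25 genes highest by TPM, 18 were in the family of cytosolic ribosomal proteins, led by rps-16 (9879 TPM), rps-25 (8704 TPM), rps-8 (8304 TPM) and rpl-41.2 (7925 TPM). The family was drawn up by gene name, so ribosomal protein genes with other names are not counted in it. The 7 genes outside the family were eef-1A.1, tct-1 for the translationally controlled tumour protein, icd-2 for a subunit of the nascent polypeptide-associated complex, the ubiquitin fusion gene ubq-2, and F57F4.2, F56H9.2 and Y37E3.8. The family took 17.05% ± 1.74 of all reads and 33.8% ± 2.19 of all TPM. Among the genes counted, 77 of 81 ribosomal protein genes reached 1 CPM, and rpl-6, rpl-37 and rpl-24.2 were listed at 0 in all 5 libraries. Genes that every cell uses can thus be listed at 0 in these tables, so a 0 is given here only as a listing and not as an absence. Summed over the family, ribosomal proteins had 191013, 187595, 154568, 158907 and 160271 CPM, higher in replicates 1 and 2 than in the other three.

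**Figure D1:**
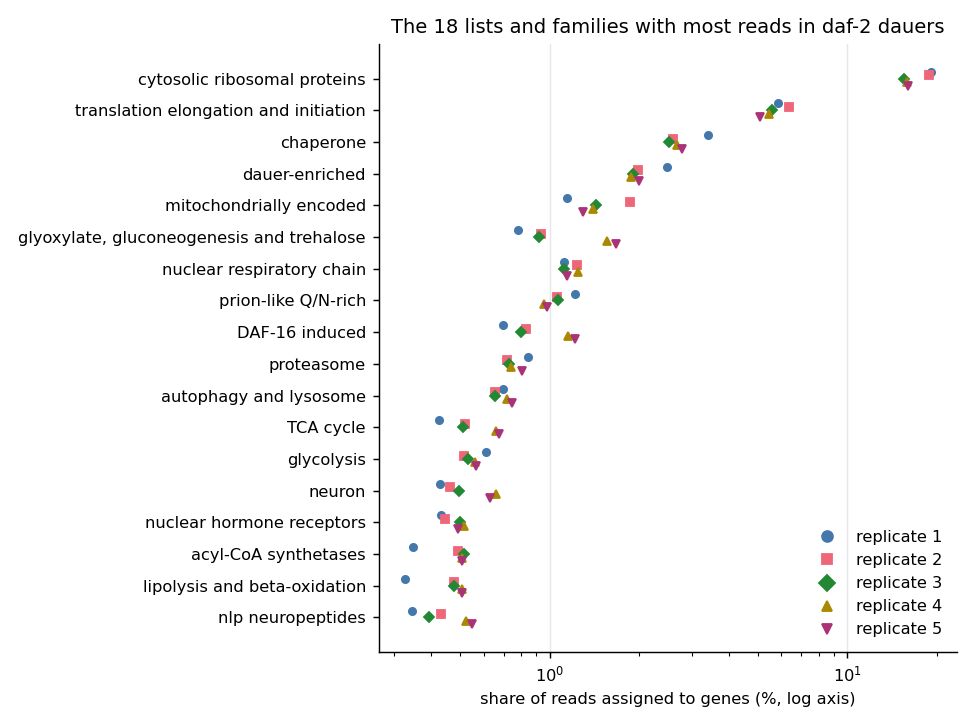
Share of the reads assigned to genes (horizontal log axis, in %) taken by the 18 gene lists and families with most reads, with 1 point per daf-2 library. Ribosomal proteins lead at a mean of 17.05%, and the points of most lists lie close together, with replicates 4 and 5 to the right for the glyoxylate, gluconeogenesis and trehalose list.

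Nearly all chaperone and proteasome genes on the lists were read. The chaperone list had all but 2 of its 26 members at 1 CPM or more, a median of 210.4 TPM and a summed level of 34049.8, 25991, 25218, 26759 and 27709 CPM, highest in replicate 1, in which daf-21 was the largest part. After daf-21 the most reads came from hsp-1, a constitutive HSP70 with 2430.1, 2097, 2265, 2568 and 2469 CPM, and crt-1, the endoplasmic reticulum protein calreticulin, with 2576, 1866, 1835, 1881 and 2238 CPM. All 34 proteasome and ubiquitin genes were above 1 CPM, with a median of 116 TPM. All 25 autophagy and lysosome genes were too, with a median of 138 TPM, and they were led per length by lgg-1, the ubiquitin-like protein of autophagosome membranes (1392 ± 83.0 TPM). Both medians exceeded the 16.05 TPM of all genes at 1 CPM or more.

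Most genes of the glyoxylate shunt and sugar synthesis were read, 17 of 19 at 1 CPM or more and at a median of 57.7 TPM. The isocitrate lyase and malate synthase gene icl-1, the enzyme of the glyoxylate shunt, had 1611, 2487, 2410.3, 3679.7 and 4163 CPM and 1061 ± 409.5 TPM. The phosphoenolpyruvate carboxykinase gene pck-1 had 691, 845, 861, 2556 and 2752 CPM, and its relative pck-2 had 978, 1033, 1046, 2171 and 2405 CPM. All 3 genes had their 2 highest values in replicates 4 and 5. So did 10 of the list's 17 genes with at least 5 CPM, against 27.8% of all such genes. In 2 of the 17 the 2 lowest values were there, against 20.2%. The alcohol dehydrogenase gene sodh-1, for which no length was matched, had 1635, 1943, 1531, 2225 and 2187 CPM. Trehalose is a sugar that dauers store against drying, and of its synthase genes tps-2 had 468, 454, 500.2, 726 and 734 CPM and tps-1 175, 159, 178, 168 and 174 CPM, the first higher in replicates 4 and 5 and the second nearly level. The whole list of 19 glyoxylate, gluconeogenesis and trehalose genes had 7809.6, 9347, 9174, 15496 and 16661 CPM, a 2.13-fold span (1.96-fold under TMM scaling).

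For fat breakdown, the acyl-CoA synthetase gene acs-2 led its list with 1704, 3290.1, 3268, 3247 and 3220.1 CPM and 1629 ± 407 TPM. Replicate 1 was low and the other 4 libraries lay close together. The beta-oxidation thiolase gene kat-1 had 128, 188, 180.5, 168 and 190.0 CPM, and the peroxisomal thiolase gene daf-22, needed to make dauer pheromone, had 124, 132, 107, 118.8 and 126.2 CPM. The triglyceride lipase gene atgl-1 had 144, 68.7, 83.5, 145 and 160.3 CPM, lowest in replicates 2 and 3. Of 25 lipolysis and beta-oxidation genes, 20 reached 1 CPM. On the synthesis side the delta-9 desaturase gene fat-6 had 571, 352, 402, 401 and 408 CPM, whereas its close relative fat-7 never exceeded 3 reads in a library, with 0.0785, 0, 0.297, 0 and 0 CPM.

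Mitochondrial genes were well represented. The adenine nucleotide translocator gene ant-1.1 had 3663, 4776, 4124, 4969 and 4307 CPM and 3909 ± 516 TPM. All 25 TCA cycle genes were above 1 CPM, and the aconitase gene aco-2 (1388, 1919, 1828, 2578 and 2781 CPM) and the citrate synthase gene cts-1 (797, 1001, 909, 1501 and 1475 CPM) were both highest in replicates 4 and 5. The 12 genes of the mitochondrial genome took 1.42% ± 0.265 of the reads, led by the cytochrome oxidase subunit genes ctc-3 (3113, 5366, 4059, 4345 and 4194 CPM) and ctc-1 (3149, 5062, 4007, 4126 and 3393 CPM). All 12 were highest in replicate 2, the replicate that held the highest value of 13.1% of all 9697 genes averaging 5 CPM or more. In glycolysis the aldolase gene aldo-2 led with 3292, 2118, 2109, 1661 and 1865 CPM, highest in replicate 1, while the lactate dehydrogenase gene ldh-1 had 28.3, 31.6, 33.3, 94.6 and 86.6 CPM, highest in replicates 4 and 5.

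Of 24 genes known for high expression in dauers, 23 were in the tables and 22 reached 1 CPM. Of all genes, 60.8% did. The median of the list was 71.5 TPM, and daf-21 held the largest part of its reads. Of its 20 members with at least 5 CPM, 7 spanned at least 4-fold between libraries, against 2.44% of all such genes. No other stage was read here, so the dauer label was not tested. The small heat-shock gene hsp-12.6 had 535, 555, 475, 722 and 735 CPM and 905 ± 198 TPM. The metallothionein gene mtl-1 had the highest TPM of the list, 1592 ± 1155 TPM, with the replicate values given below. The gene lea-1, for a desiccation-protective LEA protein, had 1522, 937, 1359.5, 353 and 369 CPM, and the dauer-enriched gene dao-3 had 399.7, 225, 206, 111 and 131 CPM. Both were lowest in replicates 4 and 5. Cuticle genes known from dauers, col-2, col-40 and cut-1, were read in all 5 libraries.

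Few genes on the list of adult and reproductive stages reached 1 CPM. Germline genes, with eggshell genes among them, and yolk genes are on other lists given below. Of these, 41 of 43 germline genes and 3 of 6 yolk genes reached 1 CPM. The adult collagen gene col-19 and the genes col-7, bli-1 and bli-2 were listed at 0 in all 5 libraries, and 3 of 11 genes on the list of adult and reproductive stages reached 1 CPM. That list also holds lin-29, the transcription factor of the switch from larva to adult, which had 18.4, 14.4, 17.3, 17.5 and 21.004 CPM. Sperm genes had few counted reads: 1 of 35 listed genes reached 1 CPM and 23 were at 0 in all libraries. None of 31 major sperm protein genes reached 1 CPM. Most genes on the sperm list are major sperm protein genes, so these counts overlap. Such genes are near-identical copies, and reads with several alignments were not counted, so their level is uncertain. Early embryo genes were likewise low at a median of 0.0779 TPM, and the 3 of 12 above 1 CPM included skn-1 (263, 211, 254, 288 and 305 CPM), a stress-response factor that is also expressed in larvae.

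**Figure D2:**
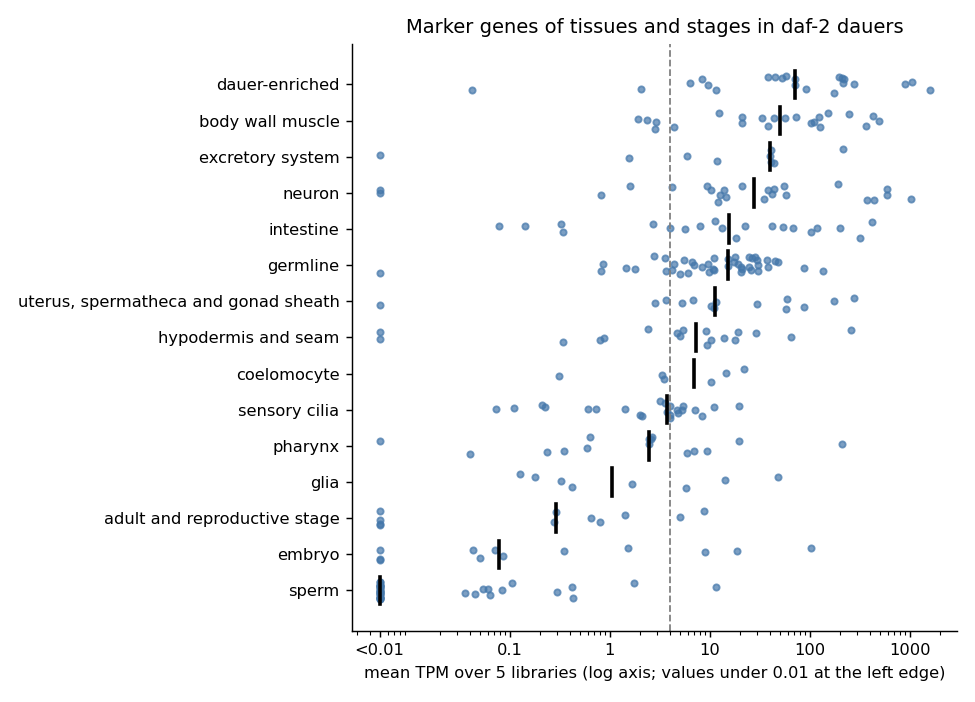
Mean TPM over the 5 daf-2 libraries (horizontal log axis) of the marker genes of each tissue or stage, with 1 point per gene and a black bar at the median of each list. The dashed line is the median of all genes, 3.97 TPM. Dauer-enriched genes and muscle markers lie highest, at medians of 71.5 and 50.4 TPM, and sperm markers lie at the left edge.

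Marker genes were read for each larval tissue listed, but not equally. Of all genes, 60.8% reached 1 CPM, and their median was 3.97 TPM where a length was matched. The pharynx list had 9 of 15 members at 1 CPM or more and the glia list 4 of 8. Their medians of 2.48 and 1.05 TPM lay below that of all genes. In bulk RNA, fewer cells of a type and less RNA per cell cannot be told apart, so these levels do not measure tissue size. All 22 body wall muscle markers exceeded 10 CPM, at a median of 50.4 TPM. The muscle myosin heavy chain gene unc-54 had 657, 1184, 1412, 473 and 396 CPM, the second heavy chain gene myo-3 had 95.6, 143, 214, 50.4 and 55.4 CPM, and the paramyosin gene unc-15 had 316, 505, 547, 267 and 236 CPM. All 3 filament genes were highest in replicates 2 and 3 and lowest in replicates 4 and 5, whereas the troponin I gene unc-27 had 75.7, 97.6, 74.5, 68.7 and 98.3 CPM and did not follow that order. For 11 of the 22 muscle markers the 2 highest values were in replicates 2 and 3, which holds for 20.3% of all 9697 genes.

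Of 20 intestinal markers, 16 reached 1 CPM, and their summed level was 1829, 1788, 1887, 1725 and 1812 CPM, a span of 1.09-fold (1.19-fold under TMM scaling). The gut transcription factor gene elt-2 had 17.3, 15.6, 15.04, 20.8 and 20.9 CPM, the gut actin gene act-5 had 89.3, 161, 131, 138 and 135 CPM, and the gut esterase gene ges-1 had 6.28, 6.18, 6.93, 5.06 and 6.14 CPM. Of 18 hypodermal and seam markers, 14 reached 1 CPM, at a list median of 7.35 TPM. Among the rest, 2 were listed at 0 in all 5 libraries, ceh-16 among them, and dpy-7 had a mean of 0.820 CPM. The spectraplakin gene vab-10 had 322, 501, 574, 311 and 299 CPM and the hypodermal GATA factor gene elt-3 76.6, 65.3, 65.3, 99.7 and 102.3 CPM. The excretory list had 8 of 9 members at 1 CPM or more. The coelomocyte list had 5 of 6, though its most specific marker, unc-122, had 0.235, 0.570, 0.495, 1.01 and 0.136 CPM only.

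Neuronal genes were abundant. Of 24 markers, 22 reached 1 CPM, at a median of 27.9 TPM, and the summed level was 4279.6, 4629, 4938, 6598 and 6314 CPM. The most reads came from genes for neuropeptide processing and dense-core vesicles: the proprotein convertase gene egl-3 (962, 1000.1, 1107, 1744 and 1703 CPM), the carboxypeptidase gene egl-21 (698, 707, 748, 1132 and 1036 CPM), ida-1 (825, 791, 944, 1246 and 1178 CPM) and sbt-1 (626, 745, 646, 779 and 779 CPM). Genes of single transmitter classes were read as well. The GABA-synthesis gene unc-25 had 72.1, 49.98, 49.5, 68.6 and 83.7 CPM, the vesicular glutamate transporter gene eat-4 22.8, 20.5, 28.3, 28.3 and 23.2 CPM, the choline acetyltransferase gene cha-1 15.5, 14.8, 16.8, 24.1 and 22.1 CPM, and the serotonin-synthesis gene tph-1 0.628, 0.190, 0.495, 3.11 and 2.05 CPM. The last was above 2 CPM only in replicates 4 and 5. The genes unc-17 and unc-18 were listed at 0 in all libraries, and unc-17 shares exonic bases with cha-1. For 10 of the 20 neuronal genes with at least 5 CPM, the 2 highest values were in replicates 4 and 5, against 27.8% of all such genes.

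Neuropeptide genes stood out as a family. Over all genes, 60.8% reached 1 CPM and the median was 3.97 TPM where a length was matched. Of 31 FMRFamide-like peptide genes, 26 reached 1 CPM, with a median of 122.8 TPM, and 59 of 75 nlp genes did, with a median of 29.5 TPM. The highest per length were nlp-12 (811 ± 302 TPM), nlp-20 (786 ± 172 TPM), nlp-18 (701 ± 341 TPM) and flp-15 (647 ± 224 TPM). For nlp-18 the values were 168, 236, 238, 456 and 495 CPM, highest in replicates 4 and 5. Of 40 insulin-like peptide genes 16 reached 1 CPM, against 60.8% of all genes. The leaders were ins-17 with 73.4, 107, 103.9, 143 and 141 CPM and ins-18, a ligand known to oppose DAF-2 signalling, with 33.3, 47.04, 43.7, 66.02 and 69.2 CPM. The ligand genes ins-4, ins-6, ins-7 and daf-28, which are known to promote growth, had means between 0.184 and 0.852 CPM.

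Chemoreceptor genes were low per length, whereas cilia genes were near the level of all genes. Sensory cilia markers had a median of 3.74 TPM, close to the 3.97 TPM of all genes. Of 23 such markers, 19 reached 1 CPM, against 60.8% of all genes. The family of 1324 chemoreceptor genes had 224 members at 1 CPM or more and a median of 0.0983 TPM, and all of them together took 0.104% ± 0.0133 of the reads. The members with most reads were srh-146 (66.8, 33.5, 42.8, 37.3 and 42.96 CPM) and str-176 (45.6, 36.8, 32.7, 25.7 and 23.7 CPM). The genes of pheromone and dauer sensing had a sum of 541, 566, 549, 555 and 551 CPM, a span of 1.05-fold (1.195-fold under TMM scaling), of which the largest part was ZC395.10, the name in the tables for the HSP90 cochaperone gene daf-41 (228, 248, 246, 232 and 227 CPM).

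Germline genes were read at moderate levels: 41 of 43 reached 1 CPM, at a median of 15.1 TPM. The eggshell proteoglycan gene cpg-2 had 196, 138, 354, 133 and 192 CPM and cpg-1 had 144, 98.3, 308, 77.4 and 87.4 CPM. The P-granule helicase gene glh-1 had 47.4, 30.2, 75.3, 45.1 and 48.1 CPM and the P-granule gene pgl-1 had 37.1, 16.9, 66.5, 30.01 and 37.6 CPM. Replicate 3 was highest for all 4, and it held the highest value for 36 of the 38 germline genes with at least 5 CPM, against 33.8% of all 9697 genes. With library sizes scaled by TMM these were 35 of 38 and 18.3%. Of the 38, 34 spanned at least 2-fold, against 21.3% of all genes. The summed level was 1646, 1219.5, 2954, 1266 and 1521 CPM. Cell cycle and replication genes followed a like order, with 839.7, 628, 1222, 707 and 806 CPM and the highest value in replicate 3 for 26 of 33 (23 of 33 under TMM scaling), the replication helicase gene mcm-7 among them (28.4, 21.2, 57.8, 22.6 and 25.096 CPM).

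Of the genes that control dauer entry, 13 of 17 on the insulin signalling list and all 7 of the DAF-7 pathway reached 1 CPM. On the steroid hormone list 7 of 11 did, close to the 60.8% of all genes. The receptor gene daf-2 had 139.7, 136, 205, 184 and 178 CPM and the kinase gene akt-1, downstream of it, had 242, 251, 266, 252 and 252 CPM. The FOXO gene daf-16 had 342, 277, 376, 561 and 584 CPM, highest in replicates 4 and 5, and it overlaps another annotated gene. The PI3-kinase gene age-1 had 32.4, 34.1, 39.1, 39.6 and 40.6 CPM.

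In the TGF-beta pathway the gene for the ligand, daf-7, had 7.53, 2.09, 2.28, 4.19 and 1.64 CPM, with replicate 1 the highest. The receptor genes daf-4 (type II) and daf-1 (type I) had 249, 265, 249, 318 and 307 CPM and 38.9, 36.01, 45.2, 55.5 and 53.3 CPM. The SMAD genes daf-8 and daf-14 had 28.02, 31.3, 37.5, 41.7 and 38.2 CPM and 43.01, 52.3, 54.02, 56.2 and 53.5 CPM, and daf-3 and daf-5, which promote dauer formation, had 40.4, 40.7, 50.4, 51.8 and 52.9 CPM and 74.4, 119.3, 151, 121.7 and 114 CPM. Of the 6 genes beside the ligand, daf-5 spanned the most, from replicate 1 as the lowest to replicate 3 as the highest.

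For steroid hormone signalling, the nuclear receptor gene daf-12 had 287, 299, 387, 368 and 386 CPM and its cofactor gene din-1 had 283, 256, 371, 326 and 309 CPM. Among genes of hormone synthesis, emb-8, which encodes the reductase that serves cytochrome P450 enzymes, had 313, 224, 242, 331 and 286 CPM and 139.98 ± 25.08 TPM. The cytochrome P450 gene daf-9 had 0.157, 0.0950, 0.396, 0.289 and 0.409 CPM, under 1 CPM in every library, and hsd-1 had 0, 0, 0, 0.0723 and 0 CPM. The Rieske oxygenase gene daf-36 had 3.61, 5.23, 4.25, 2.60 and 3.14 CPM. The temporal regulator genes lin-28 and lin-41 had 63.6, 62.999, 66.2, 60.02 and 65.7 CPM and 174, 191, 252, 225 and 211 CPM.

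Secreted and lipid-binding proteins included some of the most abundant messages outside protein synthesis. The fatty-acid- and retinol-binding protein gene far-1 had 1431, 1802, 1485, 1406 and 1351 CPM and 2622 ± 239.8 TPM. Only 9 of 24 genes of SCP-like extracellular proteins reached 1 CPM, but 3 of these were very abundant. The gene scl-11 had 647, 1906, 1341, 1319 and 1064 CPM, scl-12 had 529, 1428, 917, 1581 and 1419 CPM and scl-13 had 594, 1074, 828, 850.3 and 745 CPM, at 2061, 1918 and 1330.3 TPM. All 3 were lowest in replicate 1. Transthyretin-related genes had 44 of 58 members at 1 CPM or more and a median of 48.4 TPM.

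Of 270 nuclear hormone receptor genes 94 reached 10 CPM, against 40.7% of all genes, led by nhr-88 (292, 419, 525, 381 and 323 CPM). Among detoxification families, 58 of 76 cytochrome P450 genes and 55 of 67 UDP-glucuronosyltransferase genes reached 1 CPM. So did 37 of 49 glutathione S-transferase genes, against 60.8% of all genes. The leaders were cyp-13B1 with 428, 579.5, 553, 473 and 457 CPM, ugt-23 with 319.9, 258, 242, 183 and 192 CPM and gst-20 with 355, 178, 173, 161 and 173 CPM. Both ugt-23 and gst-20 were highest in replicate 1. Immune effector genes had a median of 4.89 TPM, with 22 of 37 at 1 CPM or more, close to the 3.97 TPM and 60.8% of all genes. They were led by the lysozyme gene lys-3 (417, 645, 541, 391 and 358 CPM) and the saposin-like gene spp-5 (208, 262, 294, 80.3 and 84.97 CPM).

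Most genes averaging 5 CPM or more spanned less than 2-fold between the 5 libraries, but nearly all varied more than counting alone gives. Among these 9697 genes, the median coefficient of variation was 18.6%, against 5.42% from counting alone, and 7632 (78.7%) spanned less than 2-fold. In 227 of the 9697 the coefficient was at or under that from counting. The common biological coefficient of variation by edgeR was 0.243. A gene was called variable where its highest library was at least 4-fold over its lowest on the log2 CPM scale with a prior count of 2, and 237 of 9697 genes (2.44%) were. The 10 steadiest genes with at least 50 CPM included ctps-1 for CTP synthase (214, 207, 204, 210.0 and 204 CPM), ucr-1 of respiratory complex III (248, 240.5, 254, 247 and 241 CPM), the cofilin gene unc-60 (230.0, 222, 223, 224 and 235 CPM) and lars-1 for a leucyl-tRNA synthetase (1105, 1098, 1087.1, 1149 and 1076 CPM). This order rested on total-count scaling: the log2 spans of these 4 genes were 0.07 to 0.09, against 0.25 to 0.35 under TMM scaling.

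**Figure D3:**
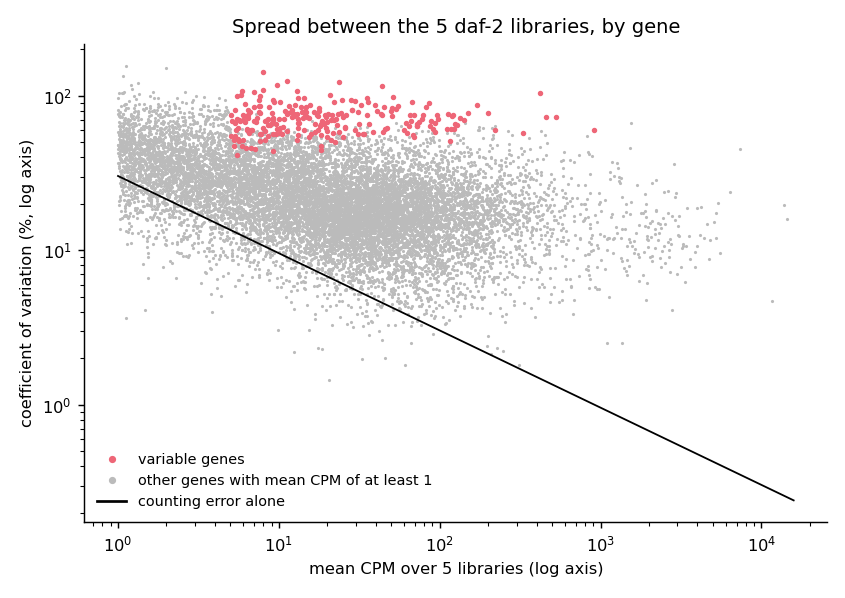
Coefficient of variation over the 5 daf-2 libraries (vertical log axis, in %) against mean CPM (horizontal log axis), with 1 point per gene of at least 1 CPM. The black line is the spread from counting alone at the mean depth, and the 237 variable genes (in red) lie along the upper edge up to lea-1, at a mean of 908 CPM.

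The variable genes did not spread evenly over the libraries. The 2 highest values were in replicates 2 and 3 for 107 of the 237 (45.1%), against 20.3% of all 9697 genes. The 2 lowest were in replicates 4 and 5 for 134 (56.5%), against 20.2%. Replicate 4 was the lowest for 93 (39.2%) and replicate 5 for 69 (29.1%), against 16.96% and 14.4% of all genes. Replicates 1, 2 and 3 were the lowest for 59 (24.9%), 13 (5.49%) and 3 (1.27%), against 36.2%, 26.2% and 6.19% of all genes. Under TMM scaling replicate 1 was lowest for 55 of the 237 (23.2%), against 20.02% of all genes, and replicate 3 for 6 (2.53%), against 18.996%. These shares describe which libraries hold the ends, and their relation to a batch was not tested.

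**Figure D4:**
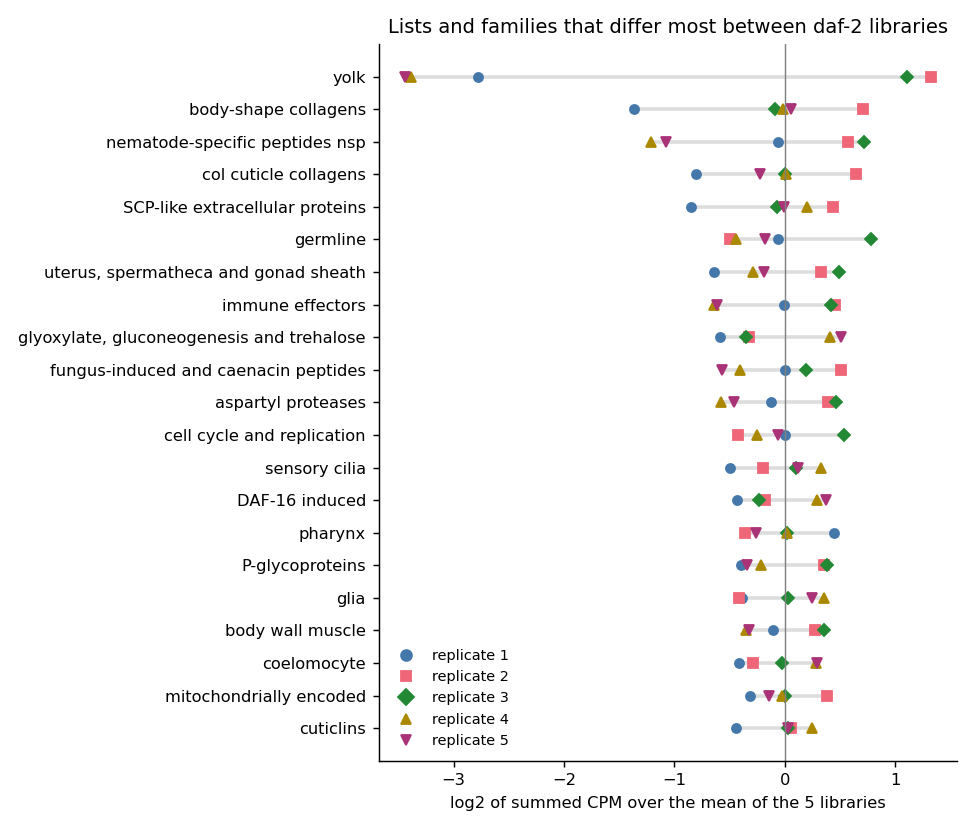
Summed CPM of each list or family in each daf-2 library, as the log2 ratio to the mean of the 5 libraries, for the 21 lists and families whose highest library was at least 1.6-fold over the lowest. Yolk genes span the most, high in replicates 2 and 3, and germline genes have replicate 3 apart to the right.

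Yolk and uterine-type genes were high in replicates 2 and 3. The yolk protein gene vit-2, on chromosome X from 5101042 to 5106169, had 3.14, 53.9, 57.2, 2.31 and 1.64 CPM, a log2 span of 4.98. The genes vit-5 and vit-6 had 1.18, 26.2, 11.3, 0.723 and 0.136 CPM and 1.41, 23.6, 20.6, 0.868 and 1.91 CPM. The log2 span of 6.37 for vit-5 rested on 1 read in replicate 5, and it was 4.89 without replicate 5 and 5.17 without replicate 2. Among uterine-type secreted proteins, ule-1 had 88.9, 363, 371, 70.1 and 97.5 CPM and ule-4 had 45.5, 211, 228, 53.5 and 64.6 CPM. The same 2 libraries were highest for clx-1 (14.05, 93.7, 104.3, 3.25 and 2.86 CPM), the C-type lectin gene clec-63 (97.8, 242, 304, 56.8 and 51.01 CPM), the lipid-binding gene far-2 (74.2, 230.3, 247, 56.2 and 62.9 CPM) and the lysozyme gene ilys-3 (50.5, 138, 172, 18.9 and 29.6 CPM). Yolk genes are known from adult intestine. The list of uterus, spermatheca and gonad sheath genes, to which the ule genes belong, had 628, 1233, 1376, 800.4 and 858 CPM. Of its 12 members with at least 5 CPM, 6 had their 2 highest values in replicates 2 and 3, against 20.3% of all genes, and 3 had them in replicates 4 and 5, against 27.8%. Its leading gene fln-1, for filamin, had 318, 337, 398, 489.6 and 499 CPM, highest in replicates 4 and 5. The list of adult and reproductive stages had 22.7, 28.8, 25.6, 27.5 and 30.96 CPM, most of it from lin-29, and 3 of its 11 genes reached 1 CPM, with col-19, col-7, bli-1 and bli-2 listed at 0. The part of adult material in these values was not tested. The germline sum was lowest in replicate 2 and highest in replicate 3.

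Cuticle collagens were the family with most variable genes: 24 of the 41 with at least 5 CPM, against 2.44% of all genes. The dauer collagen gene col-2, on chromosome IV from 10084439 to 10085451, had 8.63, 102.4, 18.4, 60.7 and 33.6 CPM, and col-40 had 8.01, 114, 21.6, 80.9 and 41.2 CPM. The cuticlin gene cut-1, known from the dauer's lateral ridges, had 1.65, 22.7, 6.63, 27.7 and 15.7 CPM. The genes col-37, col-102 and col-185 had 5.26, 76.02, 12.4, 45.1 and 24.3 CPM, 0.863, 36.6, 10.3, 34.4 and 18.96 CPM and 1.49, 25.7, 3.86, 17.4 and 9.55 CPM. Each of these 6 genes was lowest in replicate 1, next lowest in replicate 3, and highest in replicate 2 or 4. The body-shape collagen gene rol-8 had 1.099, 34.02, 13.3, 22.6 and 24.3 CPM and the ground-like gene grl-25 had 10.6, 128, 30.2, 116 and 58.6 CPM, also lowest in replicate 1. Of the 24 variable collagen genes, 16 were lowest in replicate 1, against 36.2% of all 9697 genes (15 against 20.02% under TMM scaling), and 18 were highest in replicate 2, against 13.1%. Without replicate 1, 16 of 43 collagen genes were variable, and col-102 and rol-8 no longer spanned 4-fold (1.81 and 1.35 on the log2 scale).

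Other collagens took another order. The gene col-106 had 18.4, 98.3, 115, 10.8 and 14.7 CPM, col-140 had 0.942, 31.5, 20.4, 0.940 and 2.59 CPM and col-8 had 4.55, 28.7, 27.8, 1.52 and 2.32 CPM, with replicates 2 and 3 high and replicates 1, 4 and 5 low, as for yolk genes. Collagens without strong variation existed beside them: col-103 had 53.4, 65.2, 69.2, 48.1 and 60.4 CPM. The family sum was 676, 1855, 1183, 1189.7 and 1016 CPM, a 2.74-fold span, while the cuticlin family spanned 1.61-fold.

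A further set was low in replicates 4 and 5. The gene D1086.9, on chromosome V from 14104270 to 14106330, had 1092, 446, 494, 26.2 and 35.7 CPM, and mtl-1 had 841, 729, 838, 112.8 and 103.4 CPM. The superoxide dismutase genes sod-3 and sod-5 had 75.8, 28.4, 27.4, 8.24 and 8.59 CPM and 212, 77.7, 84.99, 22.9 and 28.9 CPM, and djr-1.2, a DJ-1 family glyoxalase gene, had 91.2, 37.2, 33.3, 7.88 and 7.09 CPM. The cadmium-responsive family gene cdr-3 had 50.5, 25.5, 29.4, 3.11 and 2.05 CPM, far-3 had 129.7, 64.3, 48.5, 18.4 and 12.5 CPM, and the aldehyde dehydrogenase gene alh-8 had 11668, 8707, 8599, 4367 and 3589 CPM. In all of these, replicates 4 and 5 lay below replicates 1 to 3, and replicate 1 was the highest, though for mtl-1 replicate 3 was close to it. Of 22 antioxidant genes with at least 5 CPM, 3 were variable (1 without replicate 1), and of 22 DAF-16 target genes 6 were (3 without replicate 1), against 2.44% of all 9697 genes. Of the antioxidant genes, 11 had their 2 lowest values in replicates 4 and 5 and 13 were highest in replicate 1, against 20.2% and 14.1% of all genes. Under TMM scaling replicate 1 was highest for 15 of the 22, against 26.4% of all genes. Immune effectors had 13 of 15 with the 2 lowest values there.

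Genes high in replicates 4 and 5 formed the opposite set. Beside icl-1, pck-1 and pck-2, the small heat-shock gene hsp-12.3 had 31.9, 63.5, 55.6, 208 and 205 CPM, the patched-related gene ptr-22 had 80.3, 48.9, 84.2, 265 and 232 CPM, the linker histone gene hil-1 had 446, 564, 521, 1058 and 1056 CPM, and F35E8.7 had 0.392, 1.90, 2.57, 16.6 and 18.4 CPM. The vacuolar ATPase family had 16 of 20 members with the 2 highest values in replicates 4 and 5, against 27.8% of all genes, with a family span of 1.27-fold. Genes known as DAF-16 targets were found in both sets. Of 22 with at least 5 CPM, 8 had their 2 lowest values in replicates 4 and 5, against 20.2% of all genes, among them sod-3, mtl-1 and djr-1.2. Another 9 had their 2 highest values there, against 27.8% of all genes, among them icl-1, pck-1 and hsp-12.3. The list's summed level, 6954, 8304, 7981, 11504 and 12189.8 CPM, follows icl-1, sodh-1 and pck-1, the 3 members with most reads, and does not show the genes that were low.

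Pharyngeal muscle genes took yet another order. The pharyngeal myosin heavy chain genes myo-1, on chromosome I from 7258946 to 7267057, and myo-2 had 24.96, 0.855, 12.17, 26.4 and 4.50 CPM and 24.1, 2.19, 14.7, 27.3 and 4.77 CPM. Both were low in replicates 2 and 5 and high in replicates 1 and 4, so they split the close pair of replicates 4 and 5. The pharyngeal troponin I gene tni-4 had 11.3, 2.76, 7.02, 7.88 and 4.64 CPM and the troponin C gene tnc-2 had 7.77, 2.28, 8.01, 5.28 and 1.5003 CPM, with lower values in the same libraries. The pharyngeal selector gene pha-4 had 37.4, 28.8, 39.6, 37.4 and 40.5 CPM, lowest in replicate 2 but highest in replicate 5. The pharynx list as a whole had 9 of 15 members at 1 CPM or more and a median of 2.48 TPM, and most of its reads came from mlc-4, a non-muscle myosin light chain gene that is not specific to the pharynx.

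**Figure D5:**
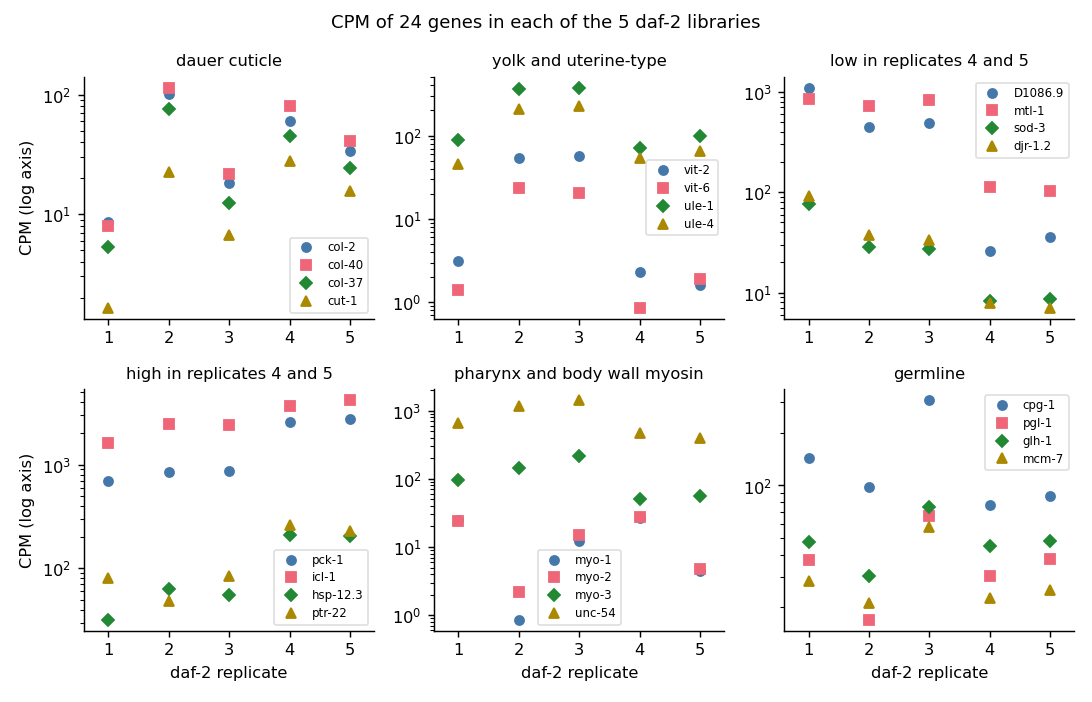
CPM (vertical log axis) of 24 genes in each of the 5 daf-2 libraries (horizontal axis, replicate number), in 6 panels of 4 genes, with 1 point per library. The panels show the dauer cuticle genes lowest in replicate 1, yolk and uterine-type genes highest in replicates 2 and 3, the opposite sets in replicates 4 and 5, pharyngeal myosins low in replicates 2 and 5, and germline genes highest in replicate 3.

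Across the 77 lists and families, 75 had sums averaging 5 CPM or more. In 11 of these the highest library was at least 2-fold over the lowest (9 under TMM scaling). In 14 the span was under 1.2-fold (9 under TMM scaling). Without replicate 1, 6 spanned 2-fold. The steadiest sums under total-count scaling were those of pheromone and dauer sensing, short-chain dehydrogenases, intestinal markers and cathepsin-like proteases. The moulting list had a median of 2.44 TPM and the heterochronic list 15.5 TPM.

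The chromosomes differed in their share of reads. Genes on the X chromosome made up 13.7% of the genes with a matched position and took 7.92% ± 0.557 of the reads, and those on chromosome V made up 25.0% and took 15.95% ± 0.396. Chromosome I took 21.2% ± 0.460 with 14.4% of the genes. Among genes with at least 1 CPM the median was 10.6 TPM on the X chromosome and higher on every autosome, up to 20.2 TPM on chromosome III.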

How the data were processed

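The authors deposited 1 table per library of whole-number read counts per gene, not normalized; the 5 tables of the daf-2 genotype were used and the other 5 were not used here. DESeq2 1.20.0, HTSeq 0.9.1, STAR 2.5.4a and FastQC 0.11.5 are named in the submitters' processing notes. The build, annotation and strand setting behind the counts are not stated in the sources used here, so reads of overlapping genes on opposite strands may not be told apart. Tally rows without a gene were kept out of every total: per library, 3.50% ± 0.591 of reads lay outside genes, 2.19% ± 0.0757 were ambiguous and 6.52% ± 0.651 aligned to several places (SD, n = 5). Reads with several alignments are not in the gene counts, so near-identical copies (histones, small heat-shock hsp-16 genes, major sperm proteins, vit-3 and vit-4, some collagens and actins) are uncertain.

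CPM was computed from the total of assigned reads with Python 3.11.15, pandas 2.3.3 and numpy 2.4.6. TPM used the merged exonic length from Ensembl 115 (WBcel235), where 19769 of 20222 genes (97.8%) were found. Of these, 18425 were matched by gene name and 1344 by transcript name. The authors may have counted with other gene models. The 453 genes without a length held 3.95% of reads and have CPM only. Dispersion (with TMM library sizes) and log2 CPM (total-count scaling, prior count 2) came from edgeR 4.0.16 in R 4.3.3, with filterByExpr (minimum count 10, minimum total 15) keeping 11446 genes, and the script was tested on simulated data. DESeq2 1.42.0 was an alternative, as were TMM scaling of CPM, other scalings of the dispersion, other thresholds and leaving out each library. TMM moved replicate 1 by 0.14 and replicate 3 by -0.13 on the log2 scale relative to total-count scaling, and the other 3 by less than 0.1.

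The comparison is a description of 1 group, with no test. The 39 lists and 38 families, and the libraries themselves, were chosen with earlier results of these data known. Genes named come from a rule: the 25 highest by TPM, the 20 widest and 10 narrowest spans, up to 4 leading members of each list or family, all members of 5 regulatory or stress lists, and tissue markers at 0. The genes alh-8, atgl-1, bli-1, bli-2, cha-1, col-19, col-7, djr-1.2, eat-4, elt-2, far-3, fat-7, ges-1, glh-1, grl-25, ldh-1, lea-1, mcm-7, myo-2, myo-3, pgl-1, rpl-24.2, rpl-37, rpl-6, sod-5, tph-1, tps-1, tps-2, unc-122, unc-15, unc-25, unc-27 and unc-54 were chosen after their values were seen. Exons of aco-2, age-1, cha-1, col-102, col-185, col-2, col-37, col-40, crt-1, ctps-1, cts-1, cut-1, daf-1, daf-14, daf-16, din-1, eat-4, eef-1A.1, far-3, fln-1, grl-25, sod-3, tnc-2, tph-1 and unc-60 share at least 50 bases with another annotated gene, so their counts are uncertain.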

Additional observations from a re-analysis of the deposited data

Results flagged for a closer look

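Summed levels and genes were looked at for 1 library standing far from the other 4, measured as the gap to the nearest library divided by the whole range. Of 216 results looked at, 18 stood out (8.33%). The limit is set so that about 1 in 20 would pass for normally distributed values. A gene with a single read, such as hsd-1, always passes it. Many of these results share genes, and some genes were chosen after their values were seen. The 8.33% can therefore not be compared with that rate.

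Replicate 1 was the outlying library in 11 of them. It was high for the dauer-enriched list (gap 0.816), the chaperone list (0.718) and daf-21 (0.804), which is the largest part of both sums. It was high for glutathione S-transferases (0.749) and their leading gene gst-20 (0.911), for the aldolase gene aldo-2 (0.720), the desaturase gene fat-6 (0.746) and the chemoreceptor gene srh-146 (0.717). It was low for acs-2 (0.956), and with it for lipolysis and beta-oxidation (0.825) and acyl-CoA synthetases (0.871), 2 lists that both hold acs-2. The values of acs-2 were 1704, 3290.1, 3268, 3247 and 3220.1 CPM.

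Replicate 3 was high for the germline list (0.754), the eggshell gene cpg-2 (0.713), the replication gene mcm-7 (0.803) and the desaturase gene fat-7 (0.736), the last with at most 3 reads in a library. Replicate 2 was low for MATH and BTB proteins (0.746) and for pha-4 (0.731). Replicate 4 held the single read of hsd-1 (1.0).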

How the results depend on the processing

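The 12301 genes at 1 CPM or more became 12298 under TMM and 12299 under DESeq2 scaling, and thresholds of 0.5 and 2 CPM gave 13276 and 11267 genes. The count of 237 variable genes depended on its definition: 2065 at a fold of 2, 68 at a fold of 8, 568 with a mean of at least 1 CPM, 98 with at least 20 CPM and 1062 with no filter, against 220 under TMM or DESeq2 scaling. The common biological coefficient of variation of 0.243 (TMM scaling) was 0.212 as the DESeq2 median, 0.258 with no filter on low counts and 0.251 with total-count scaling. Leaving out each replicate in turn gave 171 to 216 variable genes, 6 to 10 lists and families spanning 2-fold (against 11), a coefficient of 0.233 to 0.250, a share of the first principal component of 45.2% to 70.3%, 12232 to 12324 genes at 1 CPM, 13.5% to 14.3% of reads in the top 25 genes and 33.1% to 34.4% of TPM in ribosomal proteins. For the 30 genes with the widest and narrowest spans, 266 of 270 values kept their side of the 4-fold line, and the 4 that did not were all without replicate 1. These 30 genes were picked as the extremes in these data, and the 10 narrowest lay far below that line. The tally is therefore no check of the spans. Counts of which libraries hold the ends were recomputed under TMM scaling after the data were seen. Not recomputed were those of the uterus, spermatheca and gonad sheath list and of the glyoxylate, gluconeogenesis and trehalose list. None of the recomputed counts with the 2 highest or 2 lowest values in a pair of libraries moved by more than 1.5 times. Shares of all genes did: 18.3% were highest in replicate 3 (against 33.8%), 26.4% highest in replicate 1 (against 14.1%) and 20.02% lowest in replicate 1 (against 36.2%), with 18.996% lowest in replicate 3 (against 6.19%). Genes near the limit of a count of 0 cannot be ranked between libraries at this depth. No paired analysis was possible because only 1 group is described.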

Other observations

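Some values belong to no description above. Among histone genes, 35 of 81 were at 0 in all 5 libraries and 18 reached 1 CPM, led per length by his-37 (945 ± 142.3 TPM) and hil-1 (928 ± 410.4 TPM). Of 333 F-box genes 98 reached 1 CPM, and of 244 C-type lectin genes 47 did, with 52 at 0 in all libraries. The Q/N-rich gene pqn-59 had 8689.8, 6780.4, 6375, 4963 and 5093 CPM, which made it a large part of its family's 1.05% ± 0.102 of reads. Aquaporin genes were led by aqp-2 with 291, 376, 366, 428 and 413 CPM. The P-glycoprotein gene pgp-11 had 469, 877, 871, 386 and 372 CPM, high in replicates 2 and 3, while pgp-10 had 88.5, 92.3, 102.2, 213 and 179.8 CPM, high in replicates 4 and 5, so that these relatives took different orders. The C-type lectin genes clec-63 and clec-1 did likewise, and clec-1 had 46.9, 67.0, 48.1, 138 and 137 CPM. Of 10 fungus-induced and caenacin peptide genes with at least 5 CPM, 6 were variable, against 2.44% of all genes, fipr-26 among them with 153, 122.9, 101, 30.4 and 29.2 CPM.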
